A study of Mus musculus with 3 samples.

Results

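Transcripts of 9 secreted growth factors were compared across 3 states of cardiac myofibroblasts, fibroblasts that contract and lay down matrix after injury. The 9 genes were Fgf2, Fgf7 and Fgf10 of the fibroblast growth factor (FGF) family, Hgf (hepatocyte growth factor), Pdgfa of the platelet-derived growth factor family, Vegfc of the vascular endothelial growth factor family, and Hbegf, Areg and Ereg of the epidermal growth factor (EGF) family. They were taken by symbol, through the RefSeq transcript to which each probe of the array is assigned, and 10 probes on 28 spots matched them. Of the 9, 7 were well above background on at least 1 array, as were 15394 genes in all. Fgf10 and Areg were well above background on no array.

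The cells came from male C57BL/6J mice whose left anterior descending coronary artery had been tied off permanently 3 days before the hearts were taken. Adherent cells were grown on plastic, non-adherent cells had been moved from plastic into suspension, and re-adherent cells had been put back on plastic after suspension. The authors report that cell numbers fell in suspension culture and attribute this to anoikis, a death of detached cells. In all 3 groups the cells had been released from the infarcted hearts with enzymes, left to attach to plastic overnight and sorted with magnetic beads for the absence of CD45, which marks leukocytes. The labels give the age of the mice as 8 weeks in one field and 10 weeks in another, and the design text describes the samples as mixed from hearts of several plates. Each group had 1 array, so the differences carry technical errors and neither a check against replicates nor a p-value. The groups were collected one after another, so state and time in culture cannot be told apart. Since these are bulk samples, fewer cells that make a transcript and less transcript per cell cannot be told apart either.

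All of these proteins signal through receptor tyrosine kinases on the cell surface, which feed the ERK cascade among others. FGFs act through Fgfr1 to Fgfr4 with heparan sulfate as a partner, HGF acts through Met, PDGF-A through Pdgfra, VEGF-C through Flt4 and Kdr, and the EGF family ligands through Egfr and its relatives of the ErbB family. In wounded tissue, fibroblasts are a known source of such ligands, which act on epithelium, endothelium, muscle or on the fibroblasts themselves.

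The 7 measured transcripts took different courses over the 3 arrays, as the plot of the ligands shows. Ereg and Hbegf were at 2.45% and 7.96% of the adherent level in suspension, yet well above background. Both were back near the adherent level after re-adhesion. Pdgfa and Fgf2 were at 48.2% and 50.3% of the adherent level in suspension. Fgf7 and Vegfc were lower in suspension and were still low after re-adhesion, whereas Hgf was higher in suspension and far below the adherent level afterwards. Signals are given as the percentage of the 75th percentile of the same array (normalised signal), which corresponded to 651, 697 and 541 intensity units for adherent, non-adherent and re-adherent cells. The lowest normalised signal that the scanner software called well above background was 2.57%, 2.01% and 3.39% in the same order. A normalised signal compares the same probe between arrays and not different probes. Sums over the probes of a marker list, given below, are led by the brightest probes and are no measure of the amount of a cell type.

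**Figure D1:**
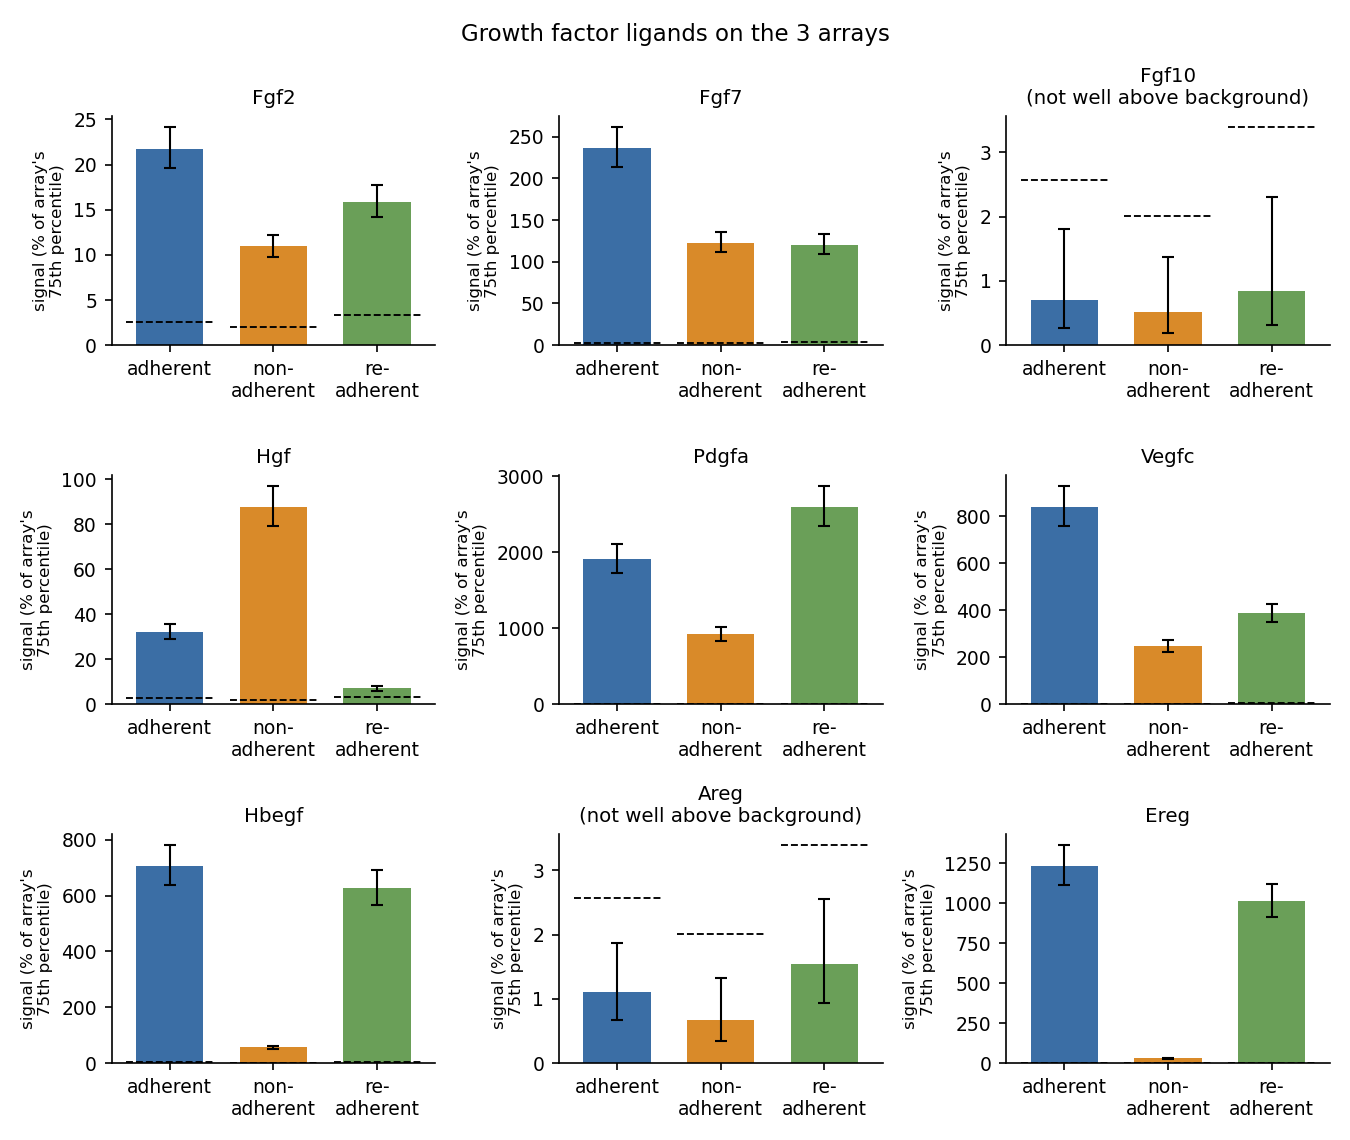
Normalised signal of each of the 9 ligands in adherent, non-adherent and re-adherent cells, in percent of the 75th percentile of the array, with 1 array per bar. Error bars are the scanner software's error of the spot and dashed lines mark the lowest signal well above background on that array. Ereg and Hbegf are lowest in suspension and back after re-adhesion, Hgf is highest in suspension, and the bars of Fgf10 and Areg lie under the dashed lines.

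In suspension, 4 of the 7 measured ligands (Pdgfa, Vegfc, Hbegf and Ereg) were over 2-fold lower than on the adherent array, where 14.7% of all genes were over 2-fold lower. Hgf alone was over 2-fold higher, against 17.2% of all genes. The median log2 difference of the 7 ligands was -1.05, and that of all genes was -0.07. From suspension to re-adhesion, Pdgfa, Hbegf and Ereg were over 2-fold higher and Hgf over 2-fold lower, against 15.6% and 16.3% of all genes. Their median log2 difference in this pair was 0.65 beside 0.08 for all genes, and the pair shares the non-adherent array with the first, so the comparisons are not independent. Between the re-adherent and the adherent array, Hgf and Vegfc were over 2-fold lower and no ligand was over 2-fold higher, against 4.9% and 4.84% of all genes. The median log2 difference of the ligands was -0.46 in that pair and 0.06 for all genes. Scaling to spike-in probes moved the median of all genes to -0.45, -0.05 and -0.44 in the 3 pairs. Of all genes over 2-fold apart between re-adherent and adherent cells, 49.7% were higher, against 14.5% with this scaling, 28.6% without scaling and 35.4% with the authors' values. In suspension the share was 53.9%, against 33.2% with spike-in scaling, and on re-adhesion 48.9%, against 29.8% without scaling and 34.1% with the authors' values.

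**Figure D2:**
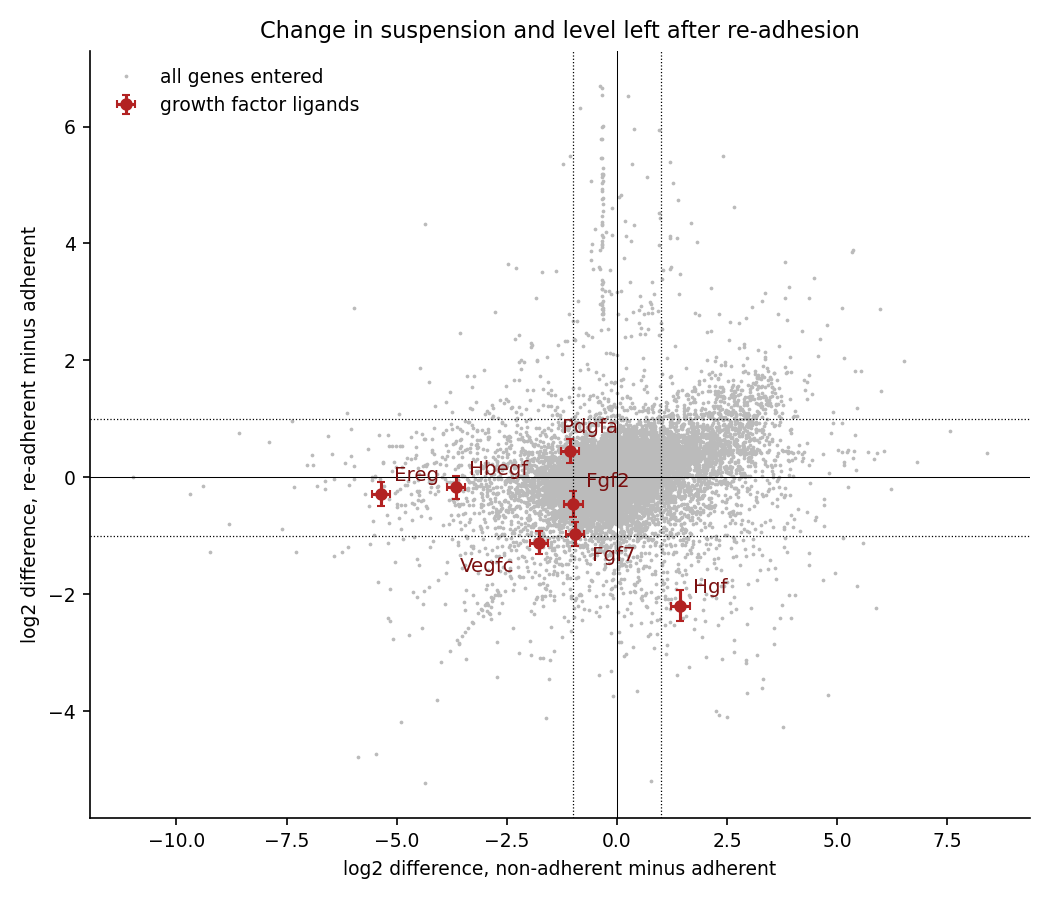
Log2 difference between non-adherent and adherent cells (horizontal axis) and between re-adherent and adherent cells (vertical axis) for 15394 genes (grey) and the 7 measured ligands (red, with the scanner software's error of each difference). Dotted lines mark 2-fold. Ereg and Hbegf lie far to the left near a vertical value of 0, while Hgf lies alone among the ligands at the lower right. The grey column near the vertical axis is made of genes with signals near background on both the adherent and the non-adherent array.

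The EGF family held the ligands with the largest differences between suspension and the adherent array. These proteins are made as membrane-bound precursors, cut by proteases of the ADAM family, and bind Egfr, with Erbb4 as a further receptor of Hbegf and Ereg. Ereg (epiregulin, NM_007950) had a normalised signal of 1233% on the adherent, 30.2% on the non-adherent and 1013% on the re-adherent array. The non-adherent signal was thus 2.45% of the adherent one, yet well above background. The log2 difference into suspension was -5.35 with an error of 0.20, and 46 of the other genes had a lower value. On re-adhesion Ereg was higher by 5.07 on the log2 scale, a value exceeded by 94 genes, and its log2 difference between re-adherent and adherent cells was -0.28, a little larger than its technical error of 0.20.

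Hbegf (heparin-binding EGF-like growth factor, NM_010415) followed the same course at a smaller scale. Its normalised signal was 706% in adherent, 56.2% in non-adherent and 626% in re-adherent cells. The log2 difference was -3.65 into suspension, where 200 genes had a lower value, and 3.48 on re-adhesion, with an error of 0.20 in each. Re-adherent and adherent cells differed by -0.17, which is within the error. For both genes, the re-adhesion step amounted to 95% of the suspension step on the log2 scale (95.2% for Hbegf and 94.7% for Ereg). Between Hbegf and Ereg, the step into suspension differed by more than the errors of both.

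Areg (amphiregulin, NM_009704), which lies next to Ereg on chromosome 5 in the RefSeq annotation and binds the same receptor, gave no signal to compare. Its normalised signal was 1.11%, 0.673% and 1.55%, under the lowest signal well above background on each array. The log2 differences between its arrays had errors from 1.04 to 1.23, and no order can be read from them. The 250 bases ahead of the Areg start site are shown because the gene was not measurable beside a strongly varying neighbour while its promoter holds several of the elements searched. They lie at chr5:91139349-91139598 on the plus strand of GRCm38.p6 (RefSeq), and capitals mark, in order, a cAMP response element (TGACGTCA), a GC box (GGGCGG) and a TATA element (TATAAA).
Areg: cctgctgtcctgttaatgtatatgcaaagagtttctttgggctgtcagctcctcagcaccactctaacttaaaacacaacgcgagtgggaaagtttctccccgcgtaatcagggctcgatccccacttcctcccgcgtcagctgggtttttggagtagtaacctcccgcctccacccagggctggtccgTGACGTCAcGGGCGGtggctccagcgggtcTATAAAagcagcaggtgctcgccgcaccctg

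Of 32841 RefSeq promoter windows of this length, 1.55% hold the cAMP response element, 32.7% the GC box and 12.4% the TATA element on either strand. The TATA element covers positions 31 to 26 ahead of the start site, the GC box 52 to 47 and the cAMP response element 61 to 54, so that none overlaps another. A match of letters is a description of the window and shows no bound factor. No promoter window of Ereg or Hbegf is in the table used.

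Among the FGFs, Fgf2 (basic FGF, a heparin-binding mitogen of mesenchymal and endothelial cells, NM_008006) was measured on 10 spots. The raw spot signals ran from 130 to 152 intensity units on the adherent array, from 68.9 to 82.1 on the non-adherent array and from 78.0 to 95.2 on the re-adherent array. The adherent spots lay above all spots of the other arrays, while the non-adherent and re-adherent spots overlapped before scaling. After scaling, the normalised signal was 21.7%, 10.9% and 15.8%. The spread of repeated spots on the log2 scale was 0.07 (SD over 10 spots), 0.08 (9 spots, 1 left out as an outlier) and 0.09 (10 spots). The log2 difference was -0.99 into suspension, just short of 2-fold, with an error of 0.22. On re-adhesion it was 0.53, and re-adherent cells stayed at 72.8% of the adherent level.

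**Figure D3:**
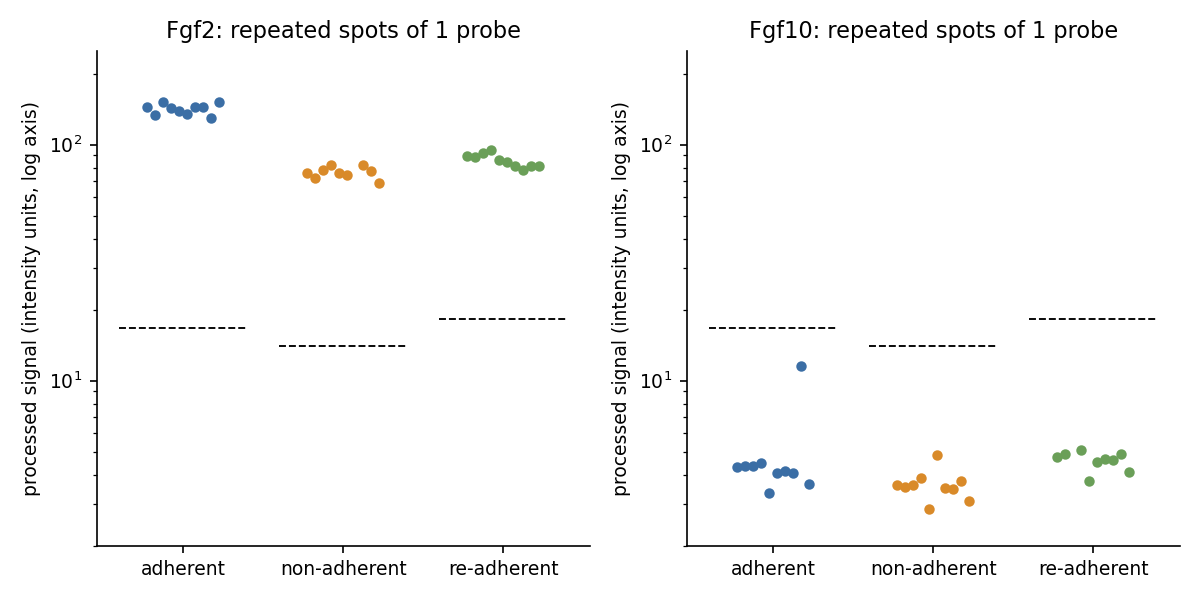
Processed signal in intensity units (log axis, not scaled between arrays) of each used spot of the Fgf2 probe (left) and of the Fgf10 probe (right), both printed 10 times on each array. Dashed lines mark the lowest signal well above background. The Fgf2 spots lie together above the line on every array, and all Fgf10 spots lie below it, with 1 adherent spot at 11.6 units.

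Fgf7 (keratinocyte growth factor, made by mesenchyme for neighbouring epithelium, NM_008008) had a normalised signal of 236%, 123% and 121%. The log2 difference was -0.94 into suspension, close to 2-fold, and -0.03 on re-adhesion with an error of 0.20, so that no return was measurable. Re-adherent cells held 51.0% of the adherent level, at a log2 difference of -0.97. In suspension Fgf2 and Fgf7 stood at 50.3% and 52.0% of their own adherent levels, within the errors of each other, and after re-adhesion at 72.8% and 51.0%. Fgf10 (NM_008002), which shares with Fgf7 the epithelial splice form of Fgfr2, was not well above background on any of its spots. The normalised signal was 0.694%, 0.515% and 0.844%, and the log2 differences had errors from 1.98 to 2.02. Of the 250 bases ahead of the Fgf7 start site, none belonged to a match with any of the 6 motifs searched, and 43.6% were G or C, against a median of 52.4% over all windows.

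Hgf (NM_010427), a mitogen and motogen of epithelium and endothelium that mesenchymal cells secrete, was the only ligand with a higher level in suspension. Its normalised signal was 32.2% on the adherent, 87.7% on the non-adherent and 7.03% on the re-adherent array, all well above background. The log2 difference was 1.44 into suspension (error 0.21) and -3.64 on re-adhesion (error 0.26). The non-adherent signal was 12.5 times the re-adherent one. Re-adherent cells held 21.8% of the adherent level, at a log2 difference of -2.20, and 133 of 15394 genes had a lower value in that pair. With the normexp background correction the same differences were -2.30 on re-adhesion and -1.13 between re-adherent and adherent cells, the largest dependence on processing among the 7 ligands. That correction was run with an offset of 50 intensity units added to each spot, and the processed re-adherent signal of Hgf was 38.0 units.

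RefSeq gives Hgf 2 start sites, and both windows are shown because Hgf moved against the other ligands. The first lies at chr5:16553245-16553494 and the second at chr5:16553651-16553900, both on the plus strand of GRCm38.p6. Neither has a capital, since none of the motifs searched is in them: the TATA element, the cAMP response element, the AP-1 site TGANTCA, the TEAD element CATTCC, the GC box, and the CArG box of serum response factor, known here by its name alone, on both strands.
Hgf, first start: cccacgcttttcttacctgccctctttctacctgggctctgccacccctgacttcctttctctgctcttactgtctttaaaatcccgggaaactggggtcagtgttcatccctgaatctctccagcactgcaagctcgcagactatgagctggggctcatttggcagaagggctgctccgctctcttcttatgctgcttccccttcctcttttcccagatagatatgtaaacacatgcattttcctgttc
Hgf, second start: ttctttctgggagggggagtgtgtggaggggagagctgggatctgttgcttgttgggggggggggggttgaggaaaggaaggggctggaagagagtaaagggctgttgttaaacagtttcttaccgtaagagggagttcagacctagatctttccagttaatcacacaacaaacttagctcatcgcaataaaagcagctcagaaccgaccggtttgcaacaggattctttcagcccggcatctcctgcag

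The AP-1 site is in 6.75%, the TEAD element in 12.6% and the CArG box in 1.47% of all windows. None of these 3 was found ahead of any of the 7 ligands that have a window, which says only that these letters are not in these 250 bases.

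Transcripts that mark other cells moved in the same pairs as Hgf. Of 10 endothelial markers, 5 were over 2-fold higher in suspension and 5 over 2-fold lower in re-adherent than in adherent cells, with medians of 0.93 and -1.32. Over all genes, 17.2% were over 2-fold higher and 14.7% lower in suspension, and 4.9% were lower in the second pair. After re-adhesion Tie1 and Emcn were no longer well above background, and the 8 markers well above background on both arrays of that pair had a median of -0.42. The summed normalised signal of the 10 was 31.3, 28.1 and 38.0 times the 75th percentile on the 3 arrays, since the bright probes of Kdr and Eng run the other way. Cdh5 (VE-cadherin), which defines endothelium, had 44.5%, 342% and 4.92%. Among the fibroblast markers, Lum (lumican) had 503%, 5930% and 69.6%, and Dcn (decorin) 6916%, 22391% and 2430.5%, the same order of the arrays as Hgf. These 2 were the fibroblast markers over 2-fold higher in suspension, while 10 of the 13 were lower, 7 of them over 2-fold, and the median was -1.01. The 8 pericyte and smooth muscle markers, given below, had medians of 0.66 in suspension and -1.11 in re-adherent against adherent cells. In suspension, 3 of them were lower and 2 higher by over 2-fold. The part of endothelial or other cells in the course of Hgf was not tested.

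Pdgfa (NM_008808), whose product drives growth and migration of cells carrying Pdgfra, had 2 probes, both well above background everywhere. The brighter probe gave 1909%, 919.8% and 2595%, and the other 1709%, 815% and 2257%. Their log2 differences were -1.05 and -1.07 into suspension, 1.496 and 1.47 on re-adhesion, and 0.44 and 0.40 between re-adherent and adherent cells. The probes differed by less than the error of 0.20 in each pair. Pdgfa was the only ligand whose signal after re-adhesion was above the adherent one, at 136%. The difference into suspension was close to 2-fold, and 4 of 11 alternative settings put it under that line. Scaling to spike-in probes turned the re-adherent minus adherent difference to -0.06.

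Vegfc (NM_009506), the main growth factor of lymphatic vessels, had a normalised signal of 840% on the adherent, 247% on the non-adherent and 387% on the re-adherent array. Its log2 difference was -1.76 into suspension and 0.65 on re-adhesion, each with an error of 0.20. Re-adherent cells held 46.1% of the adherent level, a log2 difference of -1.12. It passed 2-fold in all 11 alternatives run, the closest being -1.03 with median scaling. The filters on dim probes, the raised dim signals and the mean over probes could not change it. Vegfc and Hgf were thus the ligands whose re-adherent level was over 2-fold away from the adherent one. Fgf7 was just short of that line at -0.97, with an error of 0.20. The window ahead of the Vegfc start site is shown for its base composition: at chr8:54077282-54077531 on the plus strand of GRCm38.p6, 71.6% of the bases are G or C, and capitals mark 2 GC boxes, read here on the opposite strand.
Vegfc: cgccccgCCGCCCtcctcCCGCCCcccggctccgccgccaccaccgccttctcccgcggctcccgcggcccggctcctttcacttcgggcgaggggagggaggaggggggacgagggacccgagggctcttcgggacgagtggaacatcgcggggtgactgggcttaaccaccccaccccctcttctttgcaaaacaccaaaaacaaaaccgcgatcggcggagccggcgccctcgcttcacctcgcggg

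Fgf2, Fgf10 and Areg have 1 GC box each in the same span, and the 2 windows of Pdgfa have 1 and 2, so 5 of the 7 ligands with a window hold at least 1. Of all windows, 32.7% hold it, a share per window and not per gene. Hgf and Fgf7 have none. Any part of the GC box in the courses of the ligands was not tested.

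The ligands can also be placed by the genes whose pair of differences, non-adherent minus adherent and re-adherent minus adherent, lay nearest to theirs among 13478 genes well above background on all 3 arrays. For Ereg these were Pwwp3b and Tent5b, at distances of 0.20 and 0.31 on the log2 scale, and for Hbegf Steap2 and Jph2 at 0.05 and 0.11. For Hgf they were Alpl and Lcn2 at 0.08 and 0.21. Fgf2 lay nearest to Pspc1 and Taf1a, Fgf7 to Reep1 and BC065397, Pdgfa to Cdk15 and Ppp1r14b, and Vegfc to B020031M17Rik and Mustn1, at distances from 0.01 to 0.07. With 2 differences on 3 arrays, likeness is a description of these arrays only. Among the ligands themselves, Fgf2 and Fgf7 were nearest to each other (0.52), and Hgf and Ereg were farthest apart (7.06).

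The receptors of these ligands lay between -1.74 and 1.75 in suspension, as the plot of receptors by probe shows for their chosen probes, and the ligands between -5.35 and 1.44. Of 17 receptor genes listed, 15 were measured, and in suspension 3 were lower and 2 higher by over 2-fold, with a median log2 difference of -0.35. These are 20.0% and 13.3% of the list, near the shares of 14.7% and 17.2% over all genes. Fgfr1, the main FGF receptor of mesenchymal cells, was nearly flat, with 3 probes between -0.29 and -0.02 into suspension and between -0.09 and 0.11 for re-adherent against adherent cells. Fgfr3 was -0.97 and Fgfr4 -1.02 into suspension for their brighter probes, but a second Fgfr4 probe gave 0.03. The probes of Fgfr2 disagreed too. One gave 50.4%, 49.0% and 55.0%, and another, printed 10 times, gave 11.5% and 9.80% on the adherent and re-adherent arrays and was not well above background in suspension, where it was at least 5.73-fold lower than on the adherent array. Which transcripts of Fgfr2 each probe reads was not determined.

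Egfr, the receptor of Ereg, Hbegf and Areg, did not follow its ligands. Its 10-spot probe gave 413%, 430% and 267%, and its 3 probes had log2 differences of 0.06, 0.80 and 0.54 into suspension and between -0.63 and -0.50 for re-adherent against adherent cells. Erbb2, the co-receptor that binds no ligand of its own, was lower in suspension and returned, with 93.7%, 28.1% and 86.3%, a log2 difference of -1.74 and then 1.62. Erbb3 and Erbb4 were not well above background on any array. Met, the receptor of Hgf, took the opposite course to its ligand, with 23.5%, 11.4% and 23.1% and log2 differences of -1.04 and 1.02. Pdgfra, the receptor of Pdgfa and a fibroblast marker, had 1312%, 896.6% and 865%, and Pdgfrb 1491%, 1103% and 1203%, all within 2-fold.

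**Figure D4:**
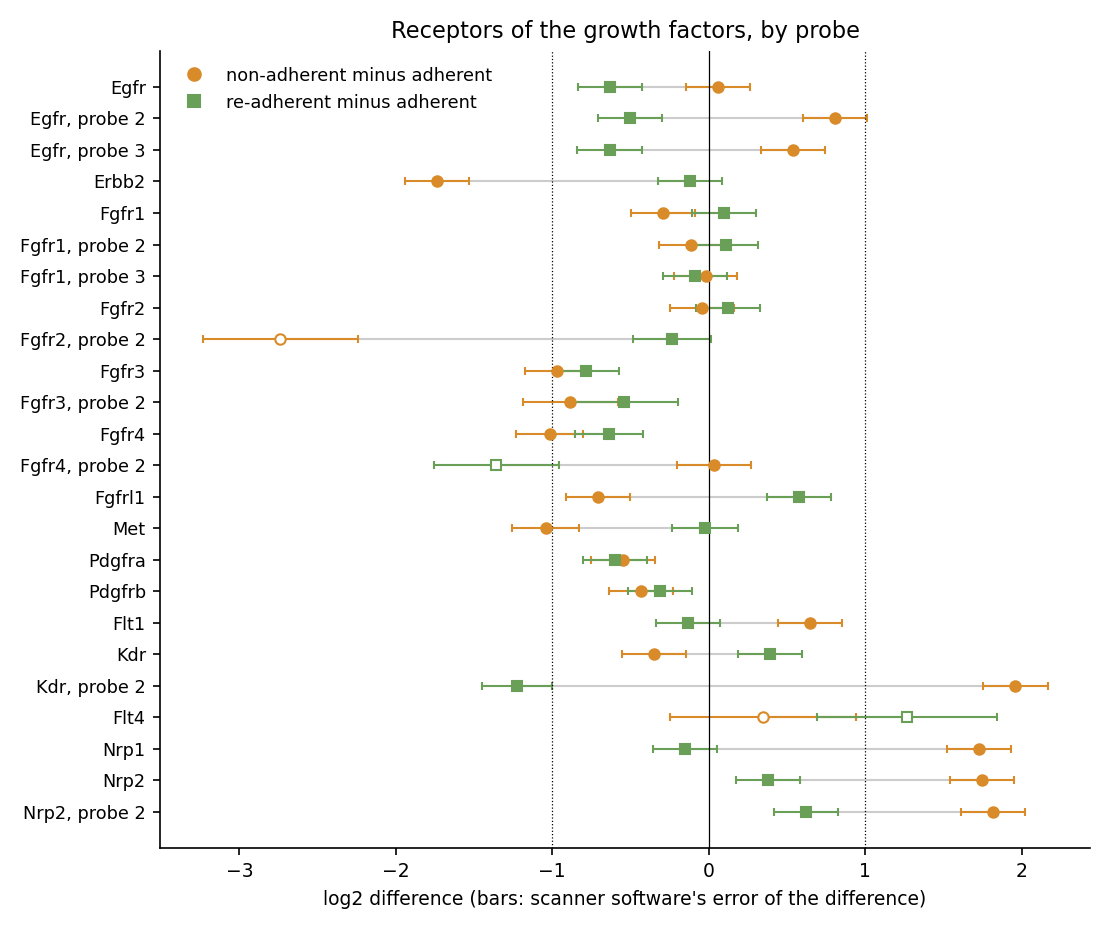
Log2 difference of each probe of the receptors between non-adherent and adherent cells (circles) and between re-adherent and adherent cells (squares), with the scanner software's error of each difference. Open symbols mark pairs in which the probe was not well above background on at least 1 of the 2 arrays, and dotted lines mark 2-fold. Erbb2 and Met are lower in suspension and return, Nrp1 and Nrp2 are higher in suspension, and the probes of Fgfr2, Fgfr4 and Kdr differ from each other.

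For Vegfc, the receptor Flt4 was well above background only on the re-adherent array, at 4.28%. Kdr was read by probes that disagreed: the brighter gave 1451%, 1140% and 1907%, and a 10-spot probe 34.2%, 133% and 14.6%. The latter has the array order of Cdh5 given above. The neuropilins, co-receptors of the VEGF family, were both higher in suspension. Nrp1 had 99.6%, 329.7% and 89.5%, and Nrp2 had 1558%, 5226% and 2024% on one probe and 221%, 776% and 339.9% on the other. Their log2 differences into suspension were 1.73, 1.75 and 1.82, opposite in sign to Vegfc.

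Heparan sulfate proteoglycans present FGFs, Hbegf and Hgf to their receptors. They were listed with other co-receptors, Cd9 and Cd44 among those measured, and genes of the list were lower in suspension more often than higher. Of 11 measured genes of this list, 5 were lower and 2 higher by over 2-fold (45.5% and 18.2%, against 14.7% and 17.2% of all genes), and the median log2 difference was -0.80 beside -0.07. Gpc4 (glypican 4) had 175%, 28.8% and 221%, a log2 difference of -2.60 and then 2.94. Sdc4 (syndecan 4) was at -1.37 into suspension, and Gpc3 was at -1.50 and was not well above background after re-adhesion, where it was at least 5.88-fold below the adherent level. Sdc3 and Cd9, a tetraspanin that associates with the Hbegf precursor, were higher by 1.15 and 1.05, and Sdc1 differed by 0.44.

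The proteases that release or activate these ligands, and their inhibitors, went both ways. Of 19 measured, 5 were lower and 6 higher by over 2-fold in suspension (26.3% and 31.6%, against 14.7% and 17.2% of all genes), with a median of -0.04 beside -0.07. Among the sheddases of EGF family precursors, Adam17 was higher by 1.41 in suspension and had 15.0%, 39.8% and 18.4%, whereas Adam19 and Adam12 were at -2.44 and -2.09. The other probes of Adam12 each gave -1.16. Adam10 was at -0.11. The inactive rhomboids that carry Adam17 to the surface split in the same way, with Rhbdf2 at 2.40 and Rhbdf1 at -1.58. Pcsk6, a proprotein convertase of the furin family, was at -3.38 with 1474%, 141% and 1302%, while Furin itself was at -0.11. Of the activators of Hgf in the list, Hpn (hepsin) was higher by 2.25, Plau (urokinase) by 1.90, St14 (matriptase) by 1.79 and Hgfac by 0.92 in suspension, and Plat (tissue plasminogen activator) was at -0.04. Adherent signals of Hpn, St14 and Hgfac were low, at 6.98%, 4.26% and 3.79%, where the lowest signal well above background was 2.57%. Of the inhibitors, Spint1 was at -0.68 and -1.23 on its probes, and Spint2 at -0.06 on its brighter probe.

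Transcripts that ERK signalling induces were described as a list of targets and feedback inhibitors. Of 25 measured, 12 were lower and 7 higher by over 2-fold in suspension, with a median log2 difference of -0.997, where the shares over all genes were 14.7% and 17.2% and the median -0.07. On re-adhesion 11 were higher and 7 lower with a median of 0.78, beside 15.6%, 16.3% and 0.08 over all genes. Those lower in suspension included Fosl1 (-4.40), the Sprouty inhibitor Spry1 (-2.94) and the factor Etv4 (-2.71), which returned by 4.60, 2.62 and 2.71. Fosl1 had 296%, 14.0% and 340.3%, so its array order was that of Pdgfa. Those higher included the immediate early genes Fos (3.86) and Egr2 (2.05) and the ERK phosphatase Dusp6 (1.74). Targets of the same cascade were therefore on both sides of the adherent level in suspension. Re-adherent cells differed from adherent cells over 2-fold for 4 genes of the list, all lower.

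Among 34 other ligands of the same families, 20 were measured, of which 7 were lower and 5 higher by over 2-fold in suspension (35.0% and 25.0%, against 14.7% and 17.2% of all genes). Among the lower, Fgf13 was not well above background in suspension, where it was at least 1.79-fold below the adherent level. Fgf23 was lower on a bright probe, while its other probe was well above background on no array. Among the higher, Nrg4 was not well above background on the adherent array. Nrg1 (neuregulin 1, the ligand of Erbb3 and Erbb4) had 80.8%, 3.92% and 127%, with log2 differences of -4.36 and 5.02, the course of Ereg and Hbegf. Pdgfd and Vegfd took it as well, at -3.91 and -3.60 into suspension and 3.88 and 3.80 on re-adhesion. Vegfd, the ligand closest to Vegfc, ended at a log2 difference of 0.20 from the adherent level, unlike Vegfc at -1.12. In the opposite direction, Pdgfc was higher by 1.89, Vegfb by 1.46 and Pgf (placental growth factor) by 1.40 in suspension. Tgfa, Btc and Nrg2 of the EGF family were not well above background on any array.

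**Figure D5:**
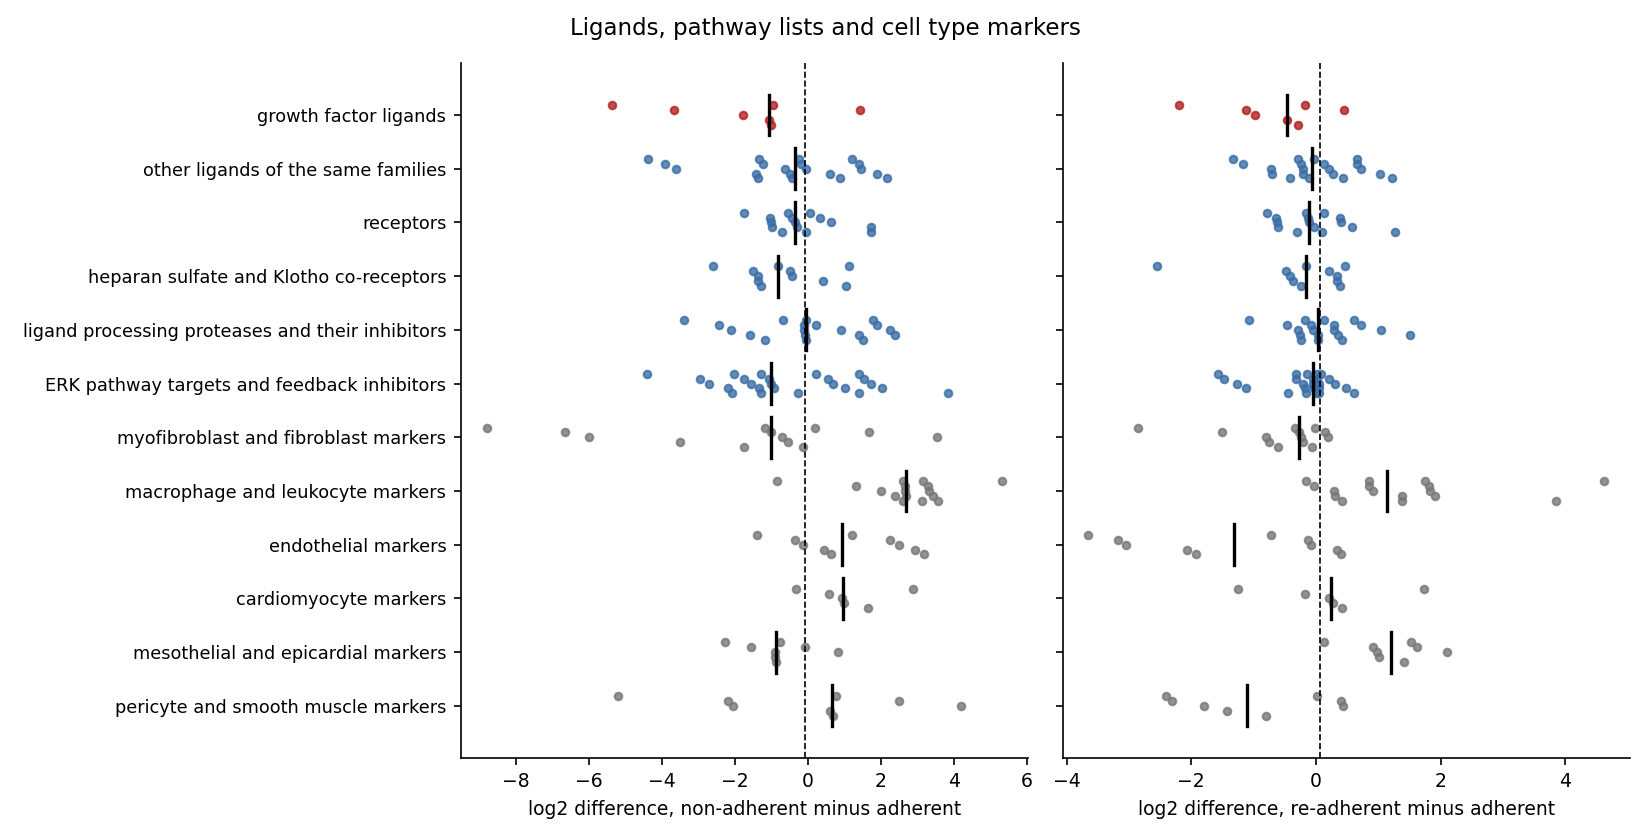
Log2 difference of each measured gene between non-adherent and adherent cells (left) and between re-adherent and adherent cells (right), by list: the ligands (red), the lists of their pathway (blue) and markers of cell types (grey). Black bars are medians of a list and the dashed line is the median of all genes. The macrophage and leukocyte markers lie to the right of the other lists in suspension, and the endothelial and pericyte markers lie to the left on the right-hand panel.

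Transcripts that mark cell types differed between the arrays. Over all genes, 14.7% were over 2-fold lower and 17.2% higher in suspension, and 4.9% lower and 4.84% higher in re-adherent than in adherent cells. The myofibroblast markers Acta2 (smooth muscle actin) and Tagln were among the bright probes of the adherent and re-adherent arrays, with 66803%, 672% and 63757% for Acta2, and 7 of 13 such markers were over 2-fold lower in suspension. Of 16 measured macrophage and leukocyte markers, 15 were over 2-fold higher in suspension and 8 over 2-fold higher in re-adherent than in adherent cells, with medians of 2.69 and 1.15. Their summed normalised signal was 223, 1392 and 471 times the 75th percentile, and Ptprc, which encodes CD45, had 54.6%, 350.4% and 98.2%. No array had Cd163 well above background, and Cd68 had no matched probe. Itgam, the only measured marker of this list that was lower in suspension, was at -0.84 on its brightest probe but at 1.96 and 1.63 on others. Of 8 mesothelial and epicardial markers, 5 were over 2-fold higher in re-adherent than in adherent cells, at a median of 1.21 and summed signals of 5.58, 3.23 and 12.8 times the 75th percentile. Of the 6 measured cardiomyocyte markers none was lower and 2 were higher by over 2-fold in suspension, with summed signals of 1.24, 1.98 and 3.38. Most of that sum came from Tnnt2, with 91.1%, 137% and 304%, whereas Myh6 had at most 10.9%, and Tnni3 and Mb were well above background only in suspension. Of 8 pericyte and smooth muscle markers, 3 were lower and 2 higher by over 2-fold in suspension, with summed signals of 38.0, 59.2 and 36.4. Most of that sum came from Mcam, with 3411%, 5517% and 3438%, and the 3 lower genes were Cspg4, Myh11 and Des. The 2 higher genes, Kcnj8 and Abcc9, were well above background only in suspension. Of the 8, 4 were over 2-fold lower in re-adherent than in adherent cells and 0 higher, at a median of -1.11. For the 5 well above background on both arrays of that pair, the median was -0.79. The part of these cells in the differences of the ligands was not tested.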

How the data were processed

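RNA of adherent, non-adherent and re-adherent mouse cardiac myofibroblasts was hybridised by the authors to 1-colour Agilent SurePrint G3 mouse arrays, 1 array per group on the same slide. The deposited scanner files hold spot intensity values from Agilent Feature Extraction 10.10.1.1 (processed signal, from which background and spatial trend are removed, with the software's error and flags for each spot). The deposited matrix of the series holds intensity values too and equalled the processed signal times 1.52, 1.52 and 1.62 on the 3 arrays. How the authors scaled it is not given in the sources used here, so it served as an alternative.

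Each array has 59305 non-control spots, of which 53.9% to 59.9% were well above background. Outlier spots (154 to 180 per array) were left out, and none was saturated. The log2 signal was reduced by the array's 75th percentile, spots of a probe were averaged, and probes were named through RefSeq (21465 of 37881 transcript names matched GRCm38.p6). A gene entered with a probe well above background, on at least 50% of its spots, on at least 1 array, and its probe of the highest mean over the arrays stood for it. The array was designed on an earlier assembly, so coordinates are given only for RefSeq promoters. For a probe below that level on an array only a bound was given, from the lowest signal well above background or its own if higher. Errors combine the software's errors of both spots. A single array per group sets the precision and allows no test, and a difference counts as called past 2-fold.

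Named genes are the 9 ligands, their receptors, the 3 largest rises and falls of each pathway list in suspension, and the 2 genes nearest to each ligand. Adam10, Adam17, Furin, Rhbdf1, Hgfac, St14, Plat, Spint1, Spint2, Cdh5, Tie1, Emcn, Lum, Dcn, Acta2, Tagln, Ptprc, Itgam, Eng, Cd44, Cd163, Tnnt2, Tnni3, Mb, Myh6, Mcam, Cspg4, Myh11, Des, Kcnj8, Abcc9, Fgf13, Fgf23, Tgfa, Btc, Nrg2 and Nrg4 fall outside that rule and were chosen after their values were seen. The ligands and lists were chosen with earlier results of these data known. The steps were tested on simulated data. The normexp alternative used the median spot signal, because the files have no mean signal column. Its offset was 50 intensity units. Python 3.11.15 with numpy 2.4.6 and pandas 2.3.3, and R 4.3.3 with limma 3.58.1, were used.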

Additional observations from a re-analysis of the deposited data

How the results depend on the processing

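The 21 differences of the 7 measured ligands were recomputed under 11 other settings each: no scaling, scaling to the median or to spike-in probes, quantile normalisation, the authors' values, the normexp background correction, a stricter filter and no filter on dim probes, dim signals raised to the lowest level well above background, the mean over the probes of a gene, and subtraction of the median difference of neighbouring spots. The filter settings and the raised dim signals could change none of these differences, since all 7 ligands were well above background on every array. The mean over probes could change only Pdgfa. Of 231 values, those fixed in this way included, 180 moved by less than the technical error and 51 by more. Of the 21 differences, 20 kept their sign throughout. The exception was Pdgfa between re-adherent and adherent cells, 0.44 against -0.06 with spike-in scaling. Differences close to 2-fold crossed it: Pdgfa in suspension was at -0.96 without scaling, -0.98 with median scaling, -0.95 with the authors' values and -0.89 with neighbouring spots subtracted, Fgf2 and Fgf7 in suspension reached -1.37 and -1.32 with spike-in scaling, and Fgf7 between re-adherent and adherent cells passed 2-fold in 5 settings, down to -1.47. The number of ligands over 2-fold lower in suspension, 4, lay between 3 and 6. The share of all genes over 2-fold lower, 14.7%, ranged from 10.0% with normexp to 24.9% with spike-in scaling. At 4-fold, 2 ligands were lower and 0 higher in suspension and 1 was lower in re-adherent than in adherent cells. No share of all genes at 4-fold is given here, so these counts have no background beside them. Over all genes, 754 were over 2-fold lower and 745 higher in re-adherent than in adherent cells, against 2001 and 338 with spike-in scaling, 1205 and 483 without scaling, 187 and 328 with normexp and 336 and 432 with the stricter filter, 453 lower with dim signals raised and 1226 higher with no filter. In suspension 3836 genes were lower with spike-in scaling against 2266, and on re-adhesion 1524 were higher without scaling against 2399 and 1553 lower with normexp against 2504. The cause of these shifts was not tested. No paired analysis was possible because the groups hold a single array apiece, which also leaves no array to omit. Signal over background limits Fgf10 and Areg, and the re-adherent signal of Hgf, 38.0 intensity units beside a lowest signal well above background of 18.3.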
